A study of Mus musculus with 4 samples.

Results

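The secretory genes of the conducting airway were examined in whole lung from sickle cell disease mice, as 34 genes of club cells, goblet cells and airway defence. The genes were taken from a fixed list of names. A gene was counted when a probe set was annotated to it alone, and where several such probe sets existed the one with the highest mean over the 4 arrays was used. Of the 34 genes, 33 had a probe set of their own, out of 30701 genes in all. Slpi, a secreted protease inhibitor, lay on a probe set that also names the microRNA gene Mir7678 and was kept out of the counts.

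The mice were adult and matched for age, and each group was represented by 2 Affymetrix arrays of total RNA from whole lung. The wild-type group (WT) is of strain C57/BL6, and the sickle cell group (SCD) is of a strain given as SCD Tg. The sources used here do not give the alleles, the genetic background of the SCD strain, the sex of the mice or any treatment, so that strain background and disease cannot be told apart. No label states that each array is a separate animal, and p-values then measure the spread between these samples, which may be technical. In whole lung, fewer cells of a type and less RNA per cell cannot be told apart.

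Club cells are the main secretory cells of the mouse conducting airway. They release secretoglobins, carry enzymes that metabolise inhaled compounds, and can turn into goblet cells, which store and release mucins, when the transcription factors Spdef and Foxa3 are active. Gel-forming mucins such as Muc5ac and Muc5b make up mucus, whereas Muc1, Muc4, Muc16 and Muc20 stay tethered to the cell surface. Surface and gland epithelium also secretes proteins that bind or restrain microbes, among them Bpifa1, Bpifb1 and Reg3g. Beside these genes, 97 probe sets of the table, that of Scgb1a1 among them, held its highest value (19.93 on the log2 scale) on all 4 arrays. Control probes shifted between the groups: the median of the exon controls was 0.20 higher and that of the intron controls differed by -0.18, with a median of 6.48 on the WT arrays.

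Part of the airway secretory genes rose in SCD lung, namely 4 of 7 secreted defence genes, 3 of 5 club cell enzymes, 2 of 6 mucins and 2 of 11 goblet cell regulators and mucus processing genes, while 0 of 4 secretoglobins passed. Among these 4, Scgb1a1 held the same value on all 4 arrays and could not pass. Of the 33 genes, 11 rose, 0 fell and 22 did not pass at an adjusted p of 0.05, in limma with Benjamini-Hochberg adjustment over all 30701 genes. The 11 were Reg3g, Agr2, Bpifb1, Clca1, Retnla, Muc4, Muc5b, Bpifa1, Sult1d1, Gsto1 and Aldh1a1, with differences from 0.51 to 2.71 (SCD minus WT, log2). Over all genes, 3.09% passed, 2.46% higher and 0.635% lower, and the airway genes were chosen with earlier results of these data known. Brighter genes passed more often. Of 12380 genes with a WT mean at or above the intron control median, 616 rose, as did 9 of the 24 airway genes there. Among genes brighter than 95% of all genes, 14.1% rose, as did 3 of the 14 airway genes there. At an unadjusted p under 0.05, a further 6 of the 33 were higher and 2 were lower (Creb3l1 and Lyz1); of all genes, 10.6% were higher and 6.07% lower at that level. The median difference was 0.29 over the 33 genes and 0.0019 over all genes. Both SCD arrays lay above both WT arrays for 21 of the 33 genes, as they did for 25.3% of all genes, and below them for 3, as they did for 22.5%.

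The count of 11 depended on both SCD arrays being present. With either SCD array left out, no gene passed in limma, neither among the 33 genes nor among all genes. All 11 kept a positive difference in these fits. Without WT replicate 1 there were 9 calls and without WT replicate 2 there were 12. When the exon control shift was subtracted from the SCD arrays, the median difference of all genes became -0.19, 9 of the 33 rose and 2 fell, and 47.7% of all called genes were higher, against 79.5% otherwise; with quantile normalization repeated, that share was 64.4%.

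**Figure D1:**
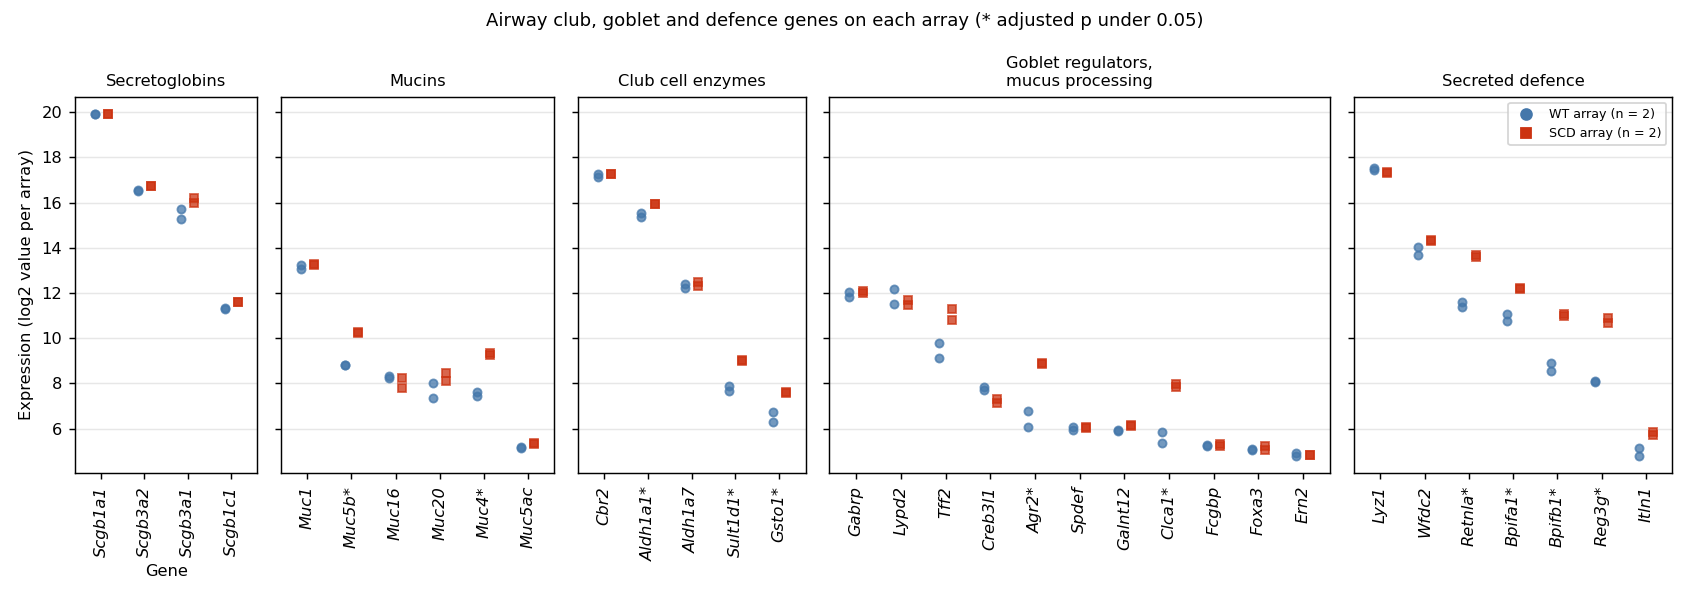
Expression on each array, as log2 values (y axis), for the 33 genes (x axis) in 5 panels by role, with circles for the 2 WT arrays and squares for the 2 SCD arrays. The squares of Reg3g, Bpifb1, Retnla, Agr2 and Clca1 lie clear of the circles, whereas those of Scgb1a1, Cbr2, Spdef and Fcgbp lie on or beside them; probe sets of different genes are not comparable in level.

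Of 7 secreted defence genes with a probe set of their own, 4 rose (Reg3g, Bpifb1, Retnla and Bpifa1), 0 fell and 3 did not pass, with a median difference of 1.28. Reg3g encodes a secreted C-type lectin that kills Gram-positive bacteria. Its log2 values were 8.09 and 8.06 in WT and 10.69 and 10.88 in SCD lung. The lower SCD value stood 2.60 above the higher WT value, a gap far wider than the spread within either group. Reg3g rose by 2.71 ± 0.11 (moderated SE, n = 2 per group), or 6.56-fold (limma adjusted p = 0.0028).

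Bpifb1 and Bpifa1 are neighbouring genes of the BPI fold family, lipid-binding proteins secreted by airway epithelium and glands. Bpifb1 values were 8.56 and 8.92 in WT and 10.98 and 11.06 in SCD. It rose by 2.28 ± 0.14, or 4.87-fold (limma adjusted p = 0.00638). Both SCD arrays lay close together and above the WT arrays, which differed more from each other. Bpifa1, also known as SPLUNC1, a surface-active protein that regulates the epithelial sodium channel, had values of 10.77 and 11.06 in WT and 12.20 and 12.19 in SCD. Its difference was 1.28 ± 0.12, or 2.43-fold, and the groups did not overlap (limma adjusted p = 0.0107).

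Retnla encodes resistin-like alpha, which is made by airway epithelium and by macrophages in type 2 inflammation. Values were 11.39 and 11.62 in WT against 13.66 and 13.58 in SCD. The groups were separated by 1.97, and Retnla rose by 2.12 ± 0.10, or 4.35-fold (limma adjusted p = 0.00356). The probe set shared by Slpi and Mir7678 moved in the same direction, from 8.91 and 8.63 to 10.72 and 10.63. In a fit over every probe set that names a gene, its difference was 1.91 ± 0.13 (limma adjusted p = 0.00787), which cannot be assigned to Slpi alone.

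The other 3 defence genes did not pass. Wfdc2, a WAP-domain protein like Slpi, had values of 13.70 and 14.02 in WT and 14.31 and 14.34 in SCD, a difference of 0.47 ± 0.12 (limma adjusted p = 0.138). It passed without WT replicate 2 (limma adjusted p = 0.0344; 0.088 to 0.284 over the settings that keep all 4 arrays). The intelectin gene Itln1, whose product binds microbial sugars, was dim, at 5.14 and 4.78 in WT and 5.84 and 5.73 in SCD, with a difference of 0.83 ± 0.16 (limma adjusted p = 0.0756). Lyz1, a lysozyme, went the other way, from 17.52 and 17.46 to 17.36 and 17.31, with a difference of -0.15 ± 0.05 (limma adjusted p = 0.218). It passed as lower with the exon control shift removed, at -0.35 (limma adjusted p = 0.035; up to 0.534 over the other settings that keep all 4 arrays). Lyz1 has a close copy in Lyz2, so that the signals of Lyz1 and Lyz2 may not be separable here. The Lyz2 probe set held 19.75 on all 4 arrays and gives no direction.

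Among the mucins, Muc5b and Muc4 rose and the other 4 did not pass. Muc5b, the gel-forming mucin that the healthy mouse airway depends on for clearance, had values of 8.80 and 8.81 in WT and 10.26 and 10.21 in SCD. Each group was tight, and the difference of 1.43 ± 0.09, or 2.69-fold, was many times that spread (limma adjusted p = 0.00626). Muc4, a tethered mucin of the airway surface, had values of 7.45 and 7.63 in WT and 9.26 and 9.36 in SCD. It rose by 1.77 ± 0.11, or 3.41-fold, with no overlap (limma adjusted p = 0.00692).

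Muc5ac, the gel-forming mucin that marks goblet cell metaplasia, was near the low end of the scale on every array, at 5.18 and 5.12 in WT and 5.37 and 5.34 in SCD. Its difference of 0.20 ± 0.11 did not pass (limma adjusted p = 0.45). The WT mean of Muc5ac lay below the intron control median, so that a small amount of transcript would not be resolved. Muc20, the chromosomal neighbour of Muc4, had values of 7.359 and 8.004 in WT and 8.106 and 8.468 in SCD, and its difference of 0.61 ± 0.25 was no larger than the distance between the WT arrays (limma adjusted p = 0.327). Muc16 (-0.29 ± 0.17) and Muc1 (0.11 ± 0.09), both tethered mucins, did not pass either. With 1 array left out, Muc20 ran from 0.28 to 0.93, Muc16 from -0.52 to -0.064 and Muc1 from 0.017 to 0.21. The sign of Muc1 turned with quantile normalization repeated (-0.26), with cyclic loess and with the exon control shift removed.

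The goblet cell regulators and mucus processing genes went separate ways. Of 11, Agr2 and Clca1 rose, 0 fell and 9 did not pass, with a median difference of 0.057. Agr2 encodes an endoplasmic reticulum protein needed to fold mucins. Its values were 6.09 and 6.77 in WT and 8.92 and 8.87 in SCD. The WT arrays stood 0.68 apart, the widest gap within a group among the 11 genes that rose, and the SCD arrays lay clear of both. Agr2 rose by 2.46 ± 0.24 (limma adjusted p = 0.0116).

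Clca1, a protein released with mucus from goblet cells, had values of 5.38 and 5.86 in WT and 7.97 and 7.82 in SCD. It rose by 2.28 ± 0.19 (limma adjusted p = 0.00824). The second probe set of Clca1 rose as well, from 5.63 and 5.72 to 6.55 and 6.79 (0.99 ± 0.13; limma adjusted p = 0.0311 over every probe set that names a gene). Agr2 and Clca1 had WT means under the median of the intron controls, so that their WT values may be background signal and no fold is given; the differences may understate the change. Tff2, a trefoil peptide secreted with mucus, just missed the threshold. Its values were 9.13 and 9.78 in WT and 11.30 and 10.82 in SCD, which did not overlap but spread widely within each group. The difference was 1.61 ± 0.27 (limma adjusted p = 0.054), and over the settings that keep all 4 arrays the adjusted p ran from 0.0373 to 0.077.

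The transcription factors that set goblet cell fate did not pass. Spdef had values of 6.09 and 5.94 in WT and 6.05 and 6.08 in SCD (0.05 ± 0.11), and Foxa3 had 5.12 and 5.06 against 5.24 and 5.05 (0.06 ± 0.13). Both overlapped between the groups. Ern2, the stress sensor of mucus cells (-0.03 ± 0.12), and Fcgbp, a mucus-associated protein (0.03 ± 0.11), also overlapped, and Galnt12, which starts mucin O-glycosylation, had a difference of 0.22 ± 0.11. All of Spdef, Foxa3, Ern2, Fcgbp and Galnt12 had WT means below the intron control median, and the arrays limit what can be said of them. Creb3l1, a membrane-bound transcription factor of secretory cells, was lower in SCD without passing, at 7.72 and 7.84 in WT and 7.32 and 7.14 in SCD (-0.55 ± 0.12; limma adjusted p = 0.0969). It passed as lower with the exon control shift removed, at -0.75 (limma adjusted p = 0.0456; up to 0.141 over the other settings that keep all 4 arrays). Gabrp, a GABA receptor subunit (0.11 ± 0.10), and Lypd2 (-0.26 ± 0.23) did not pass, and their arrays overlapped between groups.

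The secretoglobins, small secreted proteins that define club cells, gave 0 calls among 4, with 3 higher in SCD at an unadjusted p under 0.05. Scgb1a1, the club cell secretory protein, held 19.93 on all 4 arrays, so that the arrays give no direction for it. Scgb3a2 values were 16.52 and 16.55 in WT and 16.75 on both SCD arrays, a separation without overlap whose difference of 0.22 ± 0.05 did not pass (limma adjusted p = 0.108). The values of Scgb1c1 were also separated, from 11.34 and 11.31 to 11.62 and 11.61 (0.29 ± 0.08; limma adjusted p = 0.149). Scgb3a1, which is found in larger airways, had values of 15.29 and 15.73 in WT and 16.22 and 15.98 in SCD, a difference of 0.59 ± 0.16 (limma adjusted p = 0.169). With 1 array left out its difference ran from 0.37 to 0.81. These differences were smaller under other normalizations: with quantile normalization repeated and with the exon control shift removed, Scgb3a2 was at 0.058 and 0.020 and Scgb1c1 at 0.11 and 0.093.

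Among 5 club cell enzymes, 3 rose, 0 fell and 2 did not pass. The sulfotransferase gene Sult1d1 had values of 7.87 and 7.68 in WT and 8.98 and 9.05 in SCD. With no overlap between groups, it rose by 1.24 ± 0.11, or 2.36-fold (limma adjusted p = 0.0105). Aldh1a1, a retinaldehyde dehydrogenase, rose from 15.35 and 15.52 to 15.96 and 15.94 (0.51 ± 0.08; limma adjusted p = 0.0388), and Gsto1, a glutathione transferase of the omega class, from 6.29 and 6.74 to 7.61 and 7.59 (1.08 ± 0.17; limma adjusted p = 0.0489). These last 2 calls were the least firm of the 11. Aldh1a1 missed the threshold in 6 and Gsto1 in 5 of 11 other settings that keep all 4 arrays, with adjusted p up to 0.165 and 0.0687, whereas the other 9 genes passed in all 11 such settings. Cbr2, a carbonyl reductase abundant in mouse lung, had 17.13 and 17.25 in WT and 17.25 on both SCD arrays (0.06 ± 0.06). Aldh1a7 had overlapping values (0.08 ± 0.10). As Aldh1a7 is a close copy of Aldh1a1, the signals of Aldh1a1 and Aldh1a7 may not be fully separable.

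**Figure D2:**
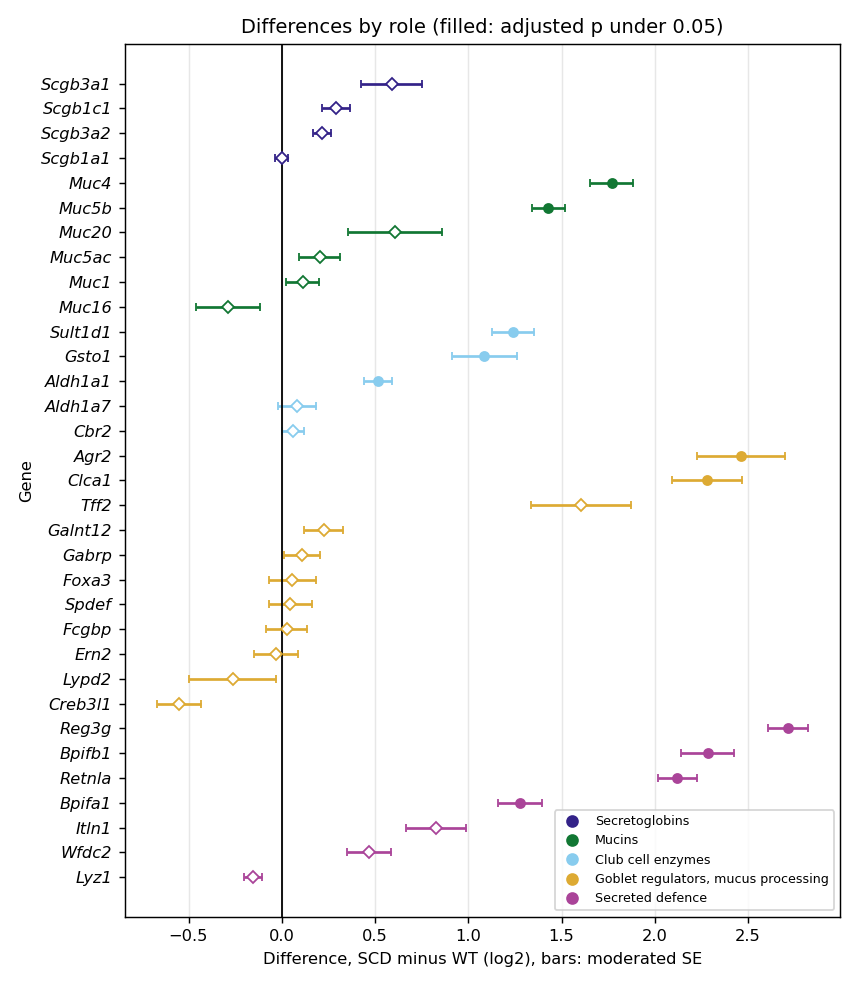
Difference between SCD and WT for each of the 33 genes (x axis, log2, SCD minus WT; y axis, genes by role), with bars for the moderated SE and filled points for genes that passed. Filled points run from 0.51 for Aldh1a1 to 2.71 for Reg3g; Scgb1a1 had the same value on all 4 arrays, and its bar comes from the spread of other genes.

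Over the 11 genes that rose, the median absolute gap within a group was 0.23 for WT and 0.070 for SCD, against 0.16 and 0.12 over all genes; for Reg3g and Muc5b the SCD gap was the wider. For 9 of the 11 genes that rose, the second WT array was above the first, with a median signed gap of 0.23, against -0.0044 over all genes. Between the SCD arrays the second was above the first for 4 of the 11, with a median signed gap of -0.019. The widest WT gaps were those of Agr2 (0.68), Clca1 and Gsto1, and leaving out WT replicate 2 raised the difference of Agr2 to 2.80, above that of Reg3g (2.70), and leaving out WT replicate 1 lowered it to 2.12.

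**Figure D3:**
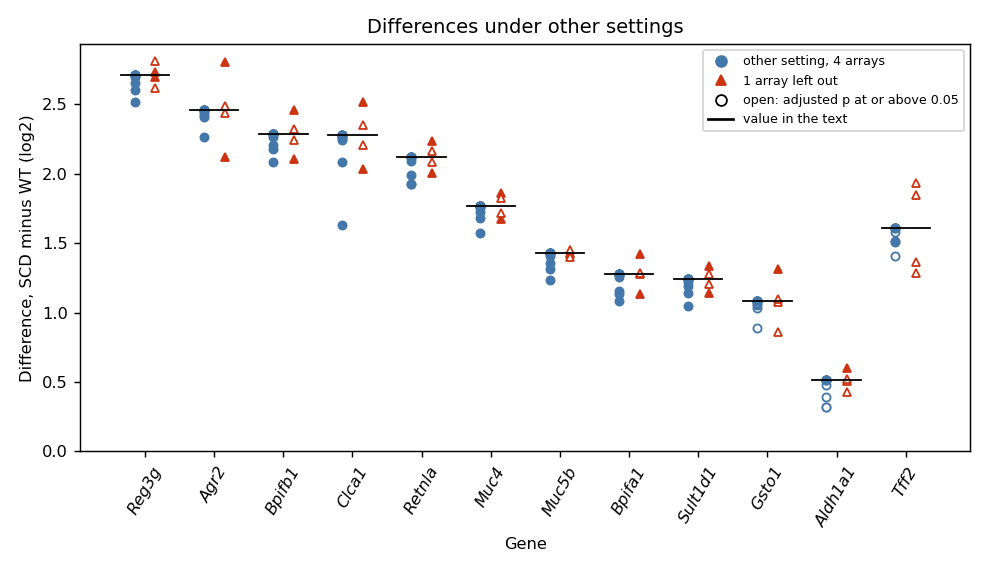
Difference between SCD and WT (y axis, log2) for the 11 genes that rose and Tff2 (x axis), with circles for other settings that keep all 4 arrays, triangles for fits that leave 1 array out, and open symbols where the adjusted p was at or above 0.05. Every symbol lies above 0; Reg3g stays between 2.52 and 2.81, and Gsto1, Aldh1a1 and Tff2 have open circles.

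Promoters of genes that rose are shown to place the letters of common promoter elements beside the values. RefSeq windows of GRCm38.p6, from 250 bases before to 50 after an annotated start, were used for 24 of the 34 genes. Of these, 9 were among the 11 that rose and 14 among those that did not pass, and Slpi is the remaining one. A chromosome was left out for the airway genes and kept in the shares of all genes. The 4 genes with the largest differences that have a window are shown, Reg3g (chr6:78468825-78469124, minus strand), Agr2 (chr12:35992675-35992974, plus strand), Bpifb1 (the upstream of 2 windows, chr2:154190568-154190867, plus strand) and Retnla (chr16:48842359-48842658, plus strand). The secretoglobin gene Scgb3a1 (chr11:49663345-49663644, plus strand) is set beside them as a gene that did not pass. Capitals mark every match, on either strand, to TATAAA (the core promoter's A/T-rich box), TGTTTAC or TGTTTGC (forkhead factors), CTCAAG (NKX2-1), TTCNNNGAA (STAT factors), GGNNTTTCC (NF-kB) and TTGCNNAA (C/EBP factors).
Reg3g: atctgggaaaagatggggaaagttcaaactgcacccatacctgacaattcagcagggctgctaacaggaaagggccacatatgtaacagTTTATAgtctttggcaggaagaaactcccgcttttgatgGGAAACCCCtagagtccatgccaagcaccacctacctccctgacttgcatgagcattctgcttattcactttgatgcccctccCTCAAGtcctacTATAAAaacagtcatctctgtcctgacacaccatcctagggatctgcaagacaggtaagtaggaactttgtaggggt
Agr2: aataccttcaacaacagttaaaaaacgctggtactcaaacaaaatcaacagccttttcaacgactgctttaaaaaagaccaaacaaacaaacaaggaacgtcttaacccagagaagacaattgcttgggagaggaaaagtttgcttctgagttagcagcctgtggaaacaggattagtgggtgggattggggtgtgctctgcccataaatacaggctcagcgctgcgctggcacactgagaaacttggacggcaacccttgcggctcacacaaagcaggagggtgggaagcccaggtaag
Bpifb1: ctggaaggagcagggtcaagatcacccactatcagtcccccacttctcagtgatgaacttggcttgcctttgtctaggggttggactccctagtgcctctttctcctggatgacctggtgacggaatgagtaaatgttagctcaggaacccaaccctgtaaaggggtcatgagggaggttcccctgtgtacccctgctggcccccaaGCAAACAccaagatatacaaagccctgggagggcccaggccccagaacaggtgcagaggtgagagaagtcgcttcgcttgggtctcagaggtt
Retnla: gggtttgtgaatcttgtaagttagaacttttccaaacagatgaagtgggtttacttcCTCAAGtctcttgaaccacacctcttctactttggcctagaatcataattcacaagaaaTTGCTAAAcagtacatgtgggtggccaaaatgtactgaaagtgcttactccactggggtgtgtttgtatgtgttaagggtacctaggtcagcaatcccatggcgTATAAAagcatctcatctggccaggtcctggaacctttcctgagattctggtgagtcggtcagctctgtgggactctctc
Scgb3a1: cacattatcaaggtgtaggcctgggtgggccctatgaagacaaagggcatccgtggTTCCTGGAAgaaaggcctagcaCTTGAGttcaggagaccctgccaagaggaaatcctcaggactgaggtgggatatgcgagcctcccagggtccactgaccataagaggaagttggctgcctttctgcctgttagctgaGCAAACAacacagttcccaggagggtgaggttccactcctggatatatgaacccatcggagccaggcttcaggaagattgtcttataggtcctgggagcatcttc

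Read from these windows, Reg3g and Retnla carry TATAAA at -27 and -30 from the start, Reg3g also has the same letters on the minus strand at -161, CTCAAG at -39 and the NF-kB letters on the minus strand at -122, Retnla also has CTCAAG at -193 and TTGCNNAA at -134, and the Agr2 window has no match. Bpifb1 and Scgb3a1 each hold the forkhead letters on the minus strand, at -43 and -55. Scgb3a1 also has TTCNNNGAA at -194 and CTCAAG on the minus strand at -172. Bpifb1 has TTCNNNGAA at -146 in its downstream window, which is not shown. Over the genes with a window, TATAAA was found in 5 of the 9 that rose (Bpifa1, Muc4, Reg3g, Retnla and Sult1d1) and in 3 of the 14 that did not pass, and in 15.7% of 27025 genes. These counts take a match anywhere in the window. The Sult1d1 match lay on the minus strand at 6 after the start, and that of Aldh1a7, which did not pass, at -244. The other genes with these letters each had a plus strand match from -36 to -27. Forkhead letters were found in 2 of 9 and 3 of 14 (9.47% of all genes), CTCAAG in 3 of 9 and 5 of 14 (18.0%), TTCNNNGAA in 1 of 9 and 1 of 14 (9.55%) and TTGCNNAA in 2 of 9 and 1 of 14 (12.2%). GGNNTTTCC was found in 1 of 9 (Reg3g), 1 of 14 (Itln1) and 6.62% of all genes; with 1 more G required before these letters, the form searched first, it was found in 0 of 9, 0 of 14 and 1.89% of all genes. A match is a description of letters and shows no binding.

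Calls among other club cell genes went both ways. Of 26 measured, 2 rose, 2 fell and 22 did not pass, with a median difference of 0.16. At an unadjusted p under 0.05 in limma, 8 were higher and 2 lower, beside 10.6% and 6.07% of all genes. Differences were positive for 18 and negative for 8. Cyp2b10, a cytochrome P450, rose by 1.01 ± 0.07 and Pigr, which carries secretory antibodies across the epithelium, by 0.91 ± 0.13, while Aox3, an aldehyde oxidase, fell by 0.88 ± 0.10 and Pon1, a paraoxonase, by 0.88 ± 0.13. A probe set shared by the listed gene Cyp2a5 and Cyp2a4 was kept out of these counts. It rose from 6.44 and 6.64 in WT to 10.60 and 10.32 in SCD. In a fit over every probe set that names a gene, its difference was 3.92 ± 0.14 (limma adjusted p = 0.00252), which cannot be assigned to Cyp2a5 alone. Cyp2f2, the cytochrome P450 that marks club cells, had values of 17.16 and 17.25 in WT and 17.13 and 17.13 in SCD (-0.08 ± 0.05; limma adjusted p = 0.556). The list's summed level was 17.81 and 17.90 in WT and 17.96 and 17.95 in SCD (log2 of the summed linear values), a sum that Cyp2f2 largely sets.

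Of the marker lists of other airway cells read here, that of ciliated cells had the most genes that rose. Of 28 measured, 17 rose, 0 fell and 11 did not pass, with a median difference of 0.97 and a summed level of 13.49 and 13.66 in WT against 14.98 and 15.05 in SCD. Fam183b, Sntn, Rsph4a and Rsph1, all genes of the motile cilium, rose by 1.91 ± 0.12, 1.78 ± 0.12, 1.40 ± 0.10 and 1.29 ± 0.08. The probe set of Foxj1, the master regulator of motile cilia, is shared with Rnf157 and gave 5.78 and 5.78 in WT and 5.79 and 5.79 in SCD, below the intron control median, so that it tells little of Foxj1. The part of ciliated airway tissue in the rise of the secretory genes that passed was not tested.

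Markers of basal cells (12), tuft cells and ionocytes (14), neuroendocrine cells (9) and airway cartilage (16) gave 0 calls in limma, with medians from -0.038 to 0.021; most of these probe sets (11 of 12, 11 of 14, 9 of 9 and 14 of 16) had WT means below the intron control median, so that a change in these cells may not be visible. At an unadjusted p under 0.05, Pdpn (0.20 ± 0.07) and Ltc4s (0.86 ± 0.18) were higher and Dapl1 (-0.58 ± 0.18) was lower. The basal keratin gene Krt5 was at 5.46 and 5.48 in WT and 5.47 and 5.61 in SCD. Of 11 submucosal gland genes, Ltf, which encodes lactoferrin and is also a neutrophil granule gene, rose by 1.67 ± 0.11, and 10 did not pass; the summed level was 10.75 and 10.87 in WT and 11.20 and 11.18 in SCD, and rests largely on Tcn2 and Ltf. Alveolar type 2 cell genes fell in 1 of 14 cases (Hc, by 0.38 ± 0.06), and their median difference was -0.092. At an unadjusted p under 0.05 in limma, 4 of the 14 were lower and 0 higher, beside 6.07% and 10.6% of all genes. Sftpc held 19.93 on all 4 arrays, so that the arrays give no direction for it. Alveolar macrophage genes, which bear on Retnla, rose in 2 of 12 cases (Car4 and Plet1, by 1.18 and 1.03) and fell in 2 (Marco and Fabp4, by 1.48 and 1.22). At an unadjusted p under 0.05, 4 of the 12 were higher and 5 lower, and the median difference was 0.027. Which cells gave the values of these genes was not tested.

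**Figure D4:**
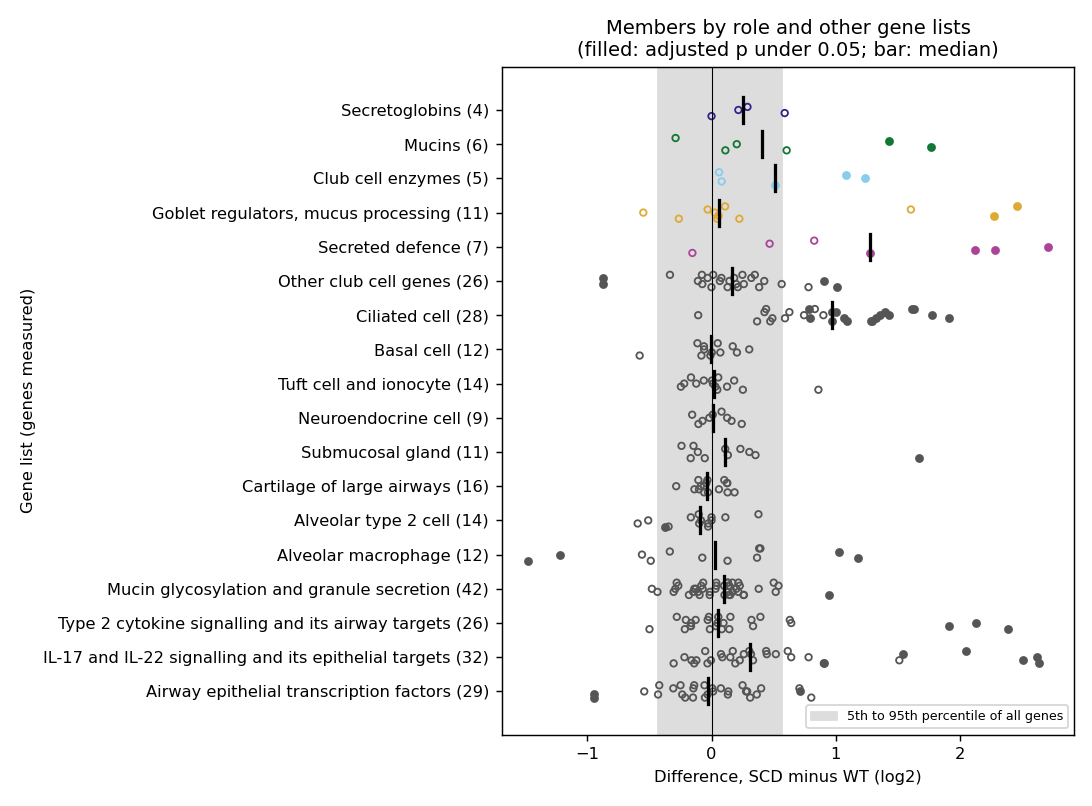
Difference between SCD and WT (x axis, log2) for each gene of the 5 roles and of 13 other gene lists (y axis, number measured in brackets), with filled points for genes that passed, black bars for medians and grey for the 5th to 95th percentile of all genes. The median of the ciliated list is 0.97 and that of the secreted defence genes 1.28, while basal, neuroendocrine and cartilage medians lie at 0 to within 0.04.

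Genes that act on the airway epithelium were read from lists of pathways. Of 26 genes of type 2 cytokine signalling and its airway targets, 3 rose, 0 fell and 23 did not pass. Il33, an epithelial alarmin, rose by 2.39 ± 0.10, Ccl17, a chemokine for T helper 2 cells, by 2.13 ± 0.18, and Slc26a4, the anion exchanger pendrin, by 1.91 ± 0.12 from a WT mean of 5.54, which is below the intron control median and may be background. Il13, the cytokine best known for driving goblet cell metaplasia, was at 5.32 and 5.57 in WT and 5.12 and 5.36 in SCD (-0.21 ± 0.15; limma adjusted p = 0.588), a dim probe set with overlapping groups.

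Of 32 genes of IL-17 and IL-22 signalling and its epithelial targets, 6 rose, 0 fell and 26 did not pass, with a median difference of 0.31. Lcn2, S100a8 and S100a9, antimicrobial proteins that sequester iron-loaded siderophores or zinc, rose by 2.64 ± 0.09, 2.62 ± 0.16 and 2.51 ± 0.11, and the metalloreductase gene Steap4 by 1.54 ± 0.12. Neutrophils also express Lcn2, S100a8 and S100a9, and which cells gave these values was not tested. Il17a itself was at 3.62 and 3.70 in WT and 3.77 and 3.49 in SCD.

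Of 42 genes of mucin glycosylation and granule secretion, Tmc5 rose by 0.95 ± 0.11, 0 fell and 41 did not pass, with a median difference of 0.10. Tmc5 was dim in both groups, with means of 5.27 in WT and 6.22 in SCD, both under the WT intron control median. Pdia3, a protein disulfide isomerase (0.52 ± 0.09), the chloride cotransporter gene Slc12a2 (-0.48 ± 0.09) and the sialyltransferase gene St3gal1 (0.54 ± 0.11) had the next smallest p-values and did not pass. Among 29 transcription factors and Notch pathway genes of the airway epithelium, Xbp1, which expands the secretory apparatus, rose by 0.71 ± 0.08. The Notch target gene Hey1 and the endoderm and endothelial factor gene Sox17 fell by 0.95 ± 0.09 and 0.95 ± 0.11. Nkx2-1, the lung lineage factor (-0.05 ± 0.13), and Foxa2, a repressor of goblet cell fate (-0.03 ± 0.11), did not pass.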

How the data were processed

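RNA of 4 whole-lung samples was measured on Affymetrix arrays, and the deposited values are 1 number per probe set and array, read as log2 expression from their range (1.72 to 19.93). Per the submitters' processing notes, the authors used RMA (robust multi-array average), Partek and Affymetrix Expression Console, with versions and order not given. Groups come from the sample titles. Platform annotation, with symbols updated through RefSeq (GRCm38.p6), gave 30701 genes, each taken from the probe set with its highest mean.

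SCD was compared with WT in limma 3.58.1 (R 4.3.3; lmFit, and eBayes with an intensity trend), two-sided, with Benjamini-Hochberg adjustment over all genes. No filter on dim genes was applied. Differences are SCD minus WT in log2 with moderated SE. The fit was tested on simulated data. The airway genes, the lists and the exon control setting were chosen with earlier results of these data known, and the gene families of the closing section and the promoter letters searched after the airway genes' values were seen. Named beside the airway genes were the up to 4 list genes with the smallest p and Cyp2f2, Foxj1, Krt5, Sftpc, Ltf, Il13, Il17a, Nkx2-1 and Foxa2, and some of these are not printed; other genes were chosen after their values were seen. Alternatives were other normalizations, filters, thresholds and eBayes settings, a replicate block, and each array left out. The number of arrays limits the precision.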

Additional observations from a re-analysis of the deposited data

How the results depend on the processing

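The 11 genes that rose kept a positive difference in all fits, and 9 of them passed in every setting with all 4 arrays at the 0.05 threshold. At a threshold of 0.01, 6 of the 33 genes were higher, and of all genes 248 were higher and 38 lower; at 0.10, 13 of the 33 were higher and 1 lower (Creb3l1), and of all genes 1281 and 471. Genes lower numbered 195 in the reported fit, 114 without an intensity trend, 321 without the dimmest 50% of genes, 343 with quantile normalization repeated and 569 with the exon control shift removed, where 2 of the 33 were lower. Calls fell to 0 without either SCD array. Leaving out each array in turn gave 0 to 12 of the 33 higher, and 0 to 643 higher and 0 to 143 lower over all genes; a group then has a lone array that is assumed to vary like the other group. Signs turned, all without a call, with quantile normalization repeated for Muc1 (-0.26), Aldh1a7 (-0.12) and Gabrp (-0.061); with cyclic loess for Muc1 (-0.015), Aldh1a7 (-0.046), Cbr2 (-0.063) and Gabrp (-0.017); and with the exon control shift removed for Muc1 (-0.084), Aldh1a7 (-0.11), Cbr2 (-0.14), Spdef (-0.15), Foxa3 (-0.14), Fcgbp (-0.17) and Gabrp (-0.087). With 1 array left out the differences ran from -0.0091 to 0.17 for Aldh1a7, -0.027 to 0.12 for Spdef, -0.039 to 0.15 for Foxa3, -0.097 to 0.035 for Ern2, -0.014 to 0.065 for Fcgbp and -0.60 to 0.070 for Lypd2. The cause of these changes was not tested. No label says that arrays with the same number are paired. Their deviations from the group means correlated at -0.0022 across genes, a value that cannot exclude a pairing. With the replicate number as a block (replicate block), 968 genes passed in limma, 775 higher and 193 lower, and the same 11 of the 33 were called. Signals of 9 of the 33 genes lay below the intron control median in WT, which limits what their differences can show.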

Other observations

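Relatives of the airway genes, taken by gene name after the values of the airway genes were seen, moved unevenly. Agr3, the sister gene of Agr2, rose by 1.36 ± 0.21 (limma adjusted p = 0.0469), and of the 4 relatives of Clca1, Clca2 and Clca3b rose, by 0.72 ± 0.11 and 0.88 ± 0.11, from dim WT means of 5.62 and 5.20. The SCD means of Clca2 and Clca3b, 6.34 and 6.08, were also under the WT intron control median. In the resistin family, Retnlg rose by 1.72 ± 0.22, Retn, the adipocyte hormone resistin, fell by 0.94 ± 0.14, and Retnlb, which epithelial cells of the gut express, stayed near the background (0.08). Of 17 other WAP-domain genes, Wfdc17 rose by 2.25 ± 0.10, Wfdc13 by 1.51 ± 0.16 (from a dim WT mean of 5.60) and Wfdc1 by 0.90 ± 0.10, and 14 did not pass.

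The relatives of the secretoglobins, BPI fold genes and mucins gave 0 calls in limma, and at an unadjusted p under 0.05, 1 BPI fold gene (Bpifa2) was higher and 1 secretoglobin gene (Scgb2b24) lower. All of the 11 other BPI fold genes and 5 other mucin genes, and 21 of the 22 other secretoglobin genes, had WT means below the intron control median. Reg1 rose by 1.13 ± 0.14, from a WT mean of 4.98 to an SCD mean of 6.10, both under the WT intron control median. Reg3b, the neighbour and close relative of Reg3g, did not pass (0.17). The means of Reg3b, 5.20 in WT and 5.37 in SCD, were also under that median, so that a change in Reg3b may not be visible. In limma 0 of the 18 other Galnt genes passed, and 0 at an unadjusted p under 0.05, with differences from -0.44 to 0.26.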
